A study of Helianthus annuus with 6 samples.

Results

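A set of 281 genes was listed in the petioles of sunflower (Helianthus annuus) line 19G and at 0 in those of line 20G. They were chosen by their level: each carries a RefSeq LOC identifier, reached at least 1 FPKM, an abundance scaled to transcript length and library size, in all 3 libraries of 19G, and was listed at exactly 0 in all 3 libraries of 20G. They make up 0.492% of the 57126 RefSeq genes in the files and 1.36% of the 20611 RefSeq genes that reached 1 FPKM in every 19G library. Because these 6 libraries chose the genes, their difference between the lines is a description and carries no test.

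The 19G group is an inbred line with flat leaves, held at a large petiole inclination angle. The 20G group is an inbred line with compact leaves, held at a small angle. Each line has 3 libraries of petiole RNA, enriched for poly(A) RNA, with no treatment named. No label used here gives plant age, growth conditions or whether the 3 libraries came from separate plants. Leaf form and line coincide, so an expression difference between leaf forms and any other difference between the lines cannot be told apart.

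The petiole is the stalk that carries the leaf blade, and the angle at which it leaves the stem sets how much light and space a plant takes up in a crop stand. Inbred lines of one species can differ not only in how strongly a gene is transcribed but in whether its RNA is found at all. For its own RNA to give an FPKM value above 0, a gene must be present and transcribed in the sampled tissue. It must also be similar enough in sequence to the reference model for its reads to be assigned there. A value of 0 does not say which of these is lacking, and in FPKM files it can also be a failed estimate. The files give no product names for these identifiers, so no function is stated for any gene named here, and the petiole identity of the samples was not checked against marker genes.

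The 6 libraries each held the same 70842 loci, of which 37904 to 39328 were above 0 and 26075 to 27468 reached 1 FPKM. Summed FPKM ran from 638235 to 701884 per library. Depth in reads is unknown for these files, and the values below carry no counting interval. Replicate 1 of 19G stood apart from the other 2 libraries of its line. Over the 20330 other RefSeq genes of at least 1 FPKM in every 19G library, the correlation of log2 FPKM across genes was 0.893 and 0.871 between replicate 1 and replicates 2 and 3, against 0.966 between replicates 2 and 3.

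Most of the 281 genes were expressed at a low level. Their mean FPKM in 19G ran from 1.05 to 198.7, with a median of 4.39 and quartiles of 2.66 and 8.32. The median of the 20330 other genes was 10.02 FPKM. A mean of at least 10 FPKM was found for 55 of the 281 genes (19.6%) and for 50.05% of the other genes, and a mean of at least 50 FPKM for 3 (1.07%) and 11.2%. The 281 genes together took 0.26% of summed FPKM in 19G replicate 1, 0.40% in replicate 2 and 0.36% in replicate 3. The set was thus 1.36% of the RefSeq genes of at least 1 FPKM in every 19G library, and a smaller share of summed FPKM.

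**Figure D1:**
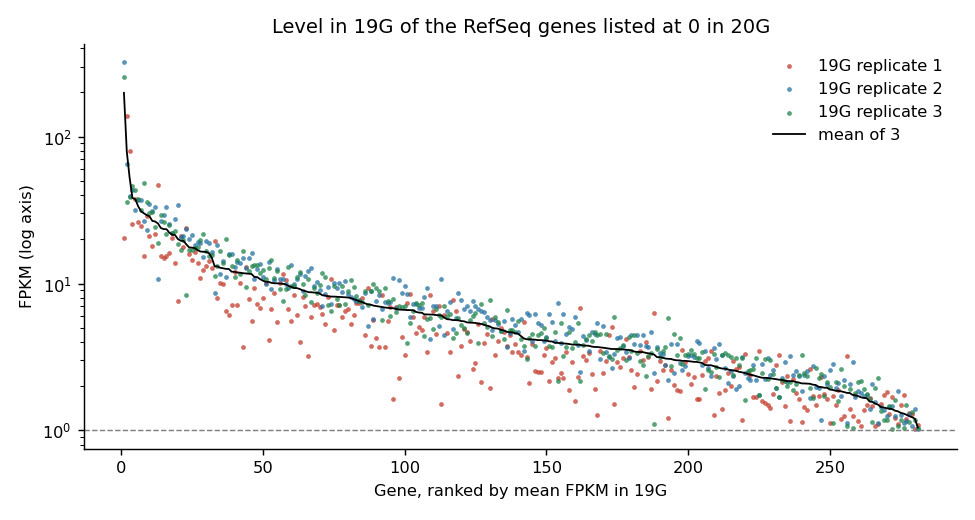
FPKM of each of the 281 genes in the 3 libraries of 19G (points, log axis), ranked by their mean (line), with the limit of 1 FPKM dashed. A few genes stand well above the rest, from 198.7 FPKM downward, and most lie between 1 and 10 FPKM, with replicate 1 often the lowest of the 3 points.

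The 10 genes with the highest mean differ in how evenly the 3 libraries of 19G carry them. LOC110930696 stood first, at 20.4 FPKM in 19G replicate 1, 320.4 in replicate 2 and 255.4 in replicate 3, a mean of 198.7 ± 157.8 (SD, n = 3). LOC110895162 stood at 137.4, 64.7 and 36.04 FPKM in replicates 1 to 3, a mean of 79.4 ± 52.3 (SD, n = 3). LOC110908513 stood at 79.6, 39.1 and 39.1 FPKM, a mean of 52.6 ± 23.4 (SD, n = 3). Replicate 1 was the lowest library for LOC110930696 and the highest for the next pair of genes, so the top of the list does not move with replicate 1 in one direction. LOC110930696 ranked 195th and 292nd among all loci of replicates 2 and 3, and 5482nd in replicate 1.

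The other 7 of the 10 varied less, apart from LOC110899937. LOC110869863 stood at 25.3, 43.4 and 46.0 FPKM in replicates 1 to 3, a mean of 38.2 ± 11.3 (SD, n = 3). LOC110941078 stood at 37.4, 31.9 and 43.3 FPKM, a mean of 37.5 ± 5.68 (SD, n = 3). LOC110872855 stood at 26.3, 37.1 and 37.4 FPKM, a mean of 33.6 ± 6.32 (SD, n = 3). These 3 genes had their libraries within 1.36 to 1.82 times of each other. LOC110879959 stood at 24.6, 36.8 and 31.9 FPKM, and LOC110885452 at 21.2, 34.9 and 29.98. LOC110944125 stood at 29.0, 23.1 and 35.7 FPKM. LOC110899937 stood at 15.3, 26.5 and 48.4 FPKM, its highest library being 3.16 times its lowest. All 10 were listed at 0 in the 3 libraries of 20G, as the choice of genes requires.

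**Figure D2:**
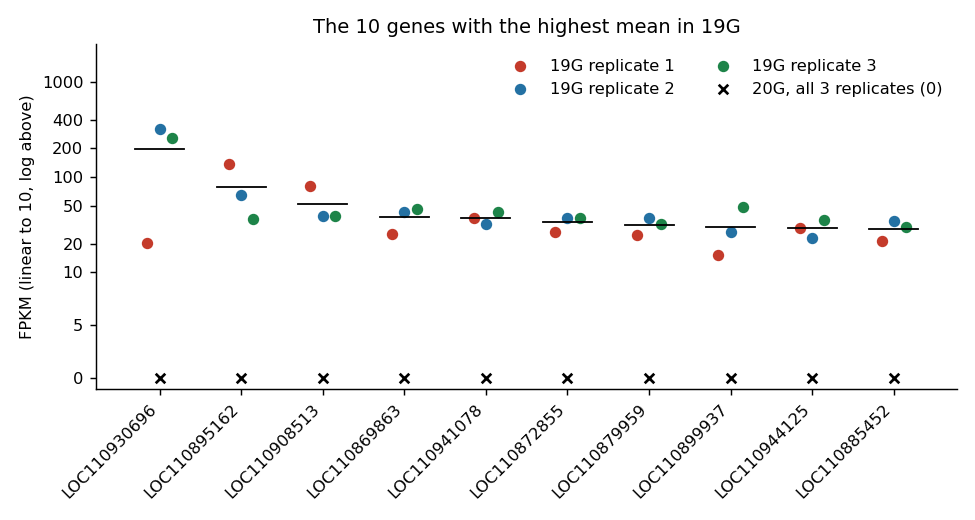
FPKM of the 10 genes with the highest mean in 19G, on an axis that is linear up to 10 and logarithmic above, with 1 point per 19G library, a bar at the mean of 3, and a cross for the 3 libraries of 20G, which are at 0. LOC110930696 has replicate 1 at 20.4 FPKM, far under its other libraries at 320.4 and 255.4.

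On the log2(FPKM + 1) scale used for the whole table, the differences of the 281 genes (20G minus 19G) ran from -6.92 for LOC110930696 to -1.03 for LOC110890439. Their size rests on the pseudocount of 1, because one side of each is 0. All 281 were called as lower in 20G by the rule used over the whole table, an adjusted p under 0.05 from limma with Benjamini-Hochberg adjustment together with a change of 1 or more on that scale. The rule that chose them already gives a difference of at least 1, so nothing is read from that count. Over the whole table, 17.1% of the 28292 tested loci were called in either direction and 8.7% as lower in 20G, and among the 23162 tested RefSeq genes 5.39% were called as lower and 6.15% as higher.

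The limit of 1 FPKM cuts through a continuous range. Just inside it, LOC110890439 stood at 1.09, 1.01 and 1.04 FPKM in the 3 libraries of 19G, LOC110928333 at 1.70, 1.47 and 1.02, and LOC110895133 at 1.03, 1.40 and 1.17. Just outside, also at 0 throughout 20G, LOC110917731 stood at 0.992, 1.88 and 1.54 FPKM, LOC110877838 at 1.497, 0.986 and 1.68, and LOC110927120 at 1.35, 0.965 and 1.47. The genes on either side of the limit are alike in level. Genes also lay just outside the limit of exactly 0 in 20G, and allowing up to 0.1 FPKM there added 85 genes to the 281. There were 5 genes of at least 1 FPKM in every 19G library with a highest 20G value above 0 and up to 0.01 FPKM, 38 with one above 0.01 and up to 0.05, and 42 with one above 0.05 and up to 0.1. LOC110884353, at 11.5, 20.4 and 23.9 FPKM in 19G, was left out by a single trace of 0.00675 FPKM in 20G replicate 3. LOC110900599, at 2.54, 4.05 and 5.12 FPKM in 19G, was left out by 0.00446 FPKM in 20G replicate 2. LOC110899205, at 1.84, 1.97 and 2.80 FPKM in 19G, was left out by 0.0044 and 0.00445 FPKM in 20G replicates 1 and 3. Listed at 0 in 2 of the 3 libraries of 20G were 79 further genes, and in 1 of the 3 another 108.

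The share of genes listed at 0 in the other line fell with level, in both lines. Of RefSeq genes with at least 1 FPKM in every 19G library, 36 of 976 (3.69%) with a mean of 1 to 2 FPKM were listed at 0 in 20G. The share was 115 of 4499 (2.56%) at 2 to 5 FPKM, 75 of 4906 (1.53%) at 5 to 10 and 35 of 4415 (0.793%) at 10 to 20. It was 17 of 3540 (0.48%) at 20 to 50 FPKM, 2 of 1277 (0.157%) at 50 to 100 and 1 of 998 (0.1%) from 100 upward. The mirror set, genes of at least 1 FPKM in every 20G library and at 0 in 19G, held 205 genes, or 2.99% at 1 to 2 FPKM, 1.66% at 2 to 5 and 1.03% at 5 to 10. The share was thus the higher one in 19G in each of the 7 level ranges, and whether it differs between the lines was not tested. With depth unknown, how many of the low genes would rise above 0 in deeper libraries of 20G cannot be stated.

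**Figure D3:**
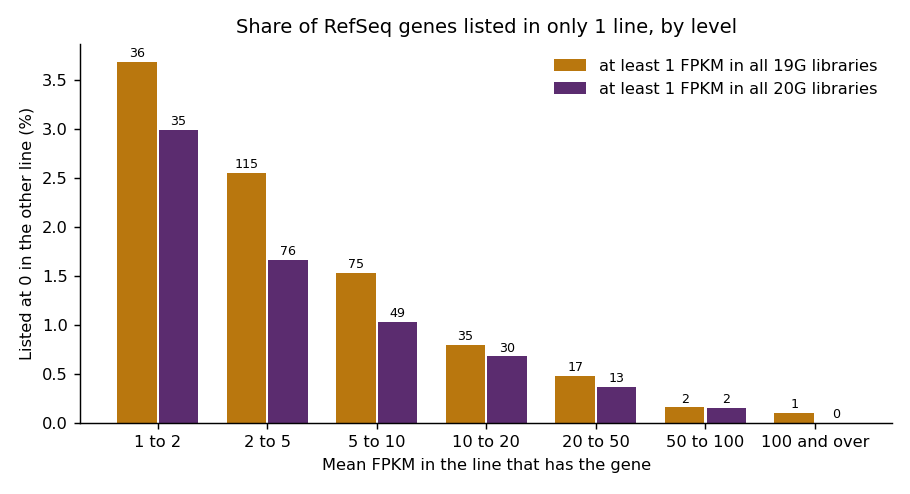
Share of RefSeq genes listed at 0 in all 3 libraries of the other line (vertical axis, percent), by mean FPKM in the line that has them, for genes of at least 1 FPKM in all libraries of 19G (first bar of each pair) or of 20G (second bar). Numbers over the bars are genes. The share falls from 3.69% and 2.99% at 1 to 2 FPKM to 0.1% and 0% from 100 FPKM upward.

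The 3 libraries of 19G carried the 281 genes unevenly, and replicate 1 was most often the lowest. The median gene stood at 3.42 FPKM in replicate 1, 5.23 in replicate 2 and 4.63 in replicate 3. Replicate 1 was the lowest library for 192 of the 281 genes (68.3%), replicate 2 for 36 and replicate 3 for 53. Among the 20330 other genes replicate 1 was the lowest for 61.4%, so the lean is shared by genes outside the set. With the libraries rescaled by the median of ratios, which raises replicate 1, the shares were 48.8% of the 281 genes and 38.2% of the others. The median log2 ratio of replicate 1 to the mean of replicates 2 and 3 was -0.45 for the 281 genes and -0.30 for the others. Among genes with a mean of at least 10 FPKM, replicate 1 was lowest for 44 of 55 (80%) and for 58.3% of the others, and among genes of 2 to 10 FPKM for 69.5% and 65.2%. Whether the 281 genes differ from others in this was not tested, since genes of one library are not replicates.

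**Figure D4:**
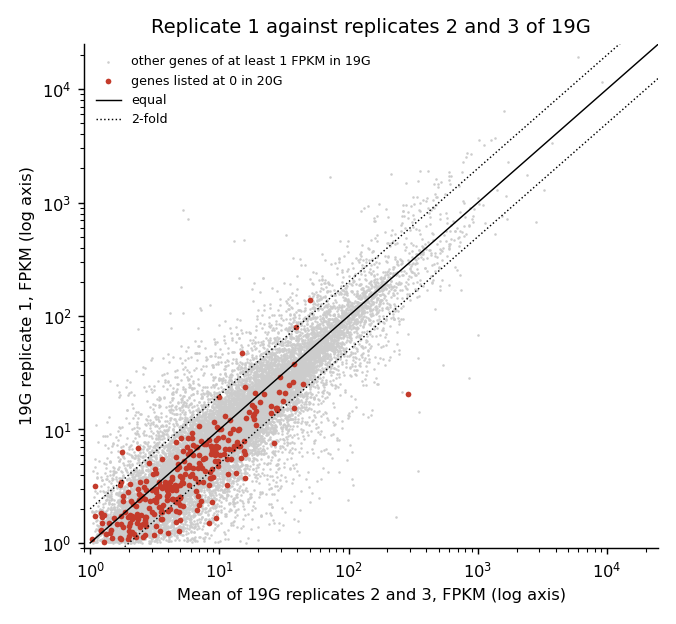
Level in 19G replicate 1 against the mean of replicates 2 and 3 (FPKM, both axes logarithmic), 1 point per gene, for the 281 genes and for the 20330 other RefSeq genes of at least 1 FPKM in every 19G library, with lines at equality and at 2-fold. Of the 281 genes, 48 lie under the lower 2-fold line and 6 above the upper one, and LOC110930696 lies farthest below.

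Over 2-fold lower in replicate 1 than the mean of replicates 2 and 3 were 48 of the 281 genes (17.1%), against 12.8% of the other genes. Over 2-fold higher were 6 (2.14%), against 5.996%. Ranked by the ratio of the highest to the lowest library among genes with a mean of at least 5 FPKM, the 3 that follow LOC110930696 all had replicate 1 lowest. LOC110892140 stood at 1.504, 10.7 and 5.95 FPKM in replicates 1 to 3. LOC110885356 stood at 1.64, 10.9 and 7.82 FPKM. LOC118492508 stood at 2.29, 10.6 and 7.03 FPKM. In these 3 genes the highest library was 4.64 to 7.14 times the lowest. The reverse pattern was seen in LOC110929414, named after its values were seen, at 47.2 FPKM in replicate 1 and 10.8 and 18.9 in replicates 2 and 3. Its coefficient of variation, the SD as a share of the mean, was 74.4%, above the 69.4% of LOC110885356 and the 62.8% of LOC118492508.

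Other genes of the set hardly varied between the libraries of 19G, replicate 1 included. LOC110930239 stood at 7.41, 7.77 and 7.56 FPKM, with a coefficient of variation of 2.39%. LOC110865485 stood at 6.94, 6.77 and 6.45 FPKM, and LOC110877236 at 10.1, 9.97 and 10.7. LOC110894903, at 20.4, 22.1 and 22.0 FPKM, was the most abundant of the 4 most even genes. The median coefficient of variation was 26.2% over the 281 genes and 22.5% over the others. A highest library of at least 2 times the lowest was found in 88 of the 281 genes (31.3%) and in 26.5% of the others. At 4 times or more the order was reversed, with 10 of the 281 genes (3.56%) and 5.81% of the others.

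The identifiers themselves give a rough age of each gene record. NCBI gives gene numbers in the order in which records are made, so identifiers that start with LOC118 are later records than those that start with LOC110. They made up 25 of the 281 genes (8.90%), 411 of the 20330 other genes (2.02%) and 25 of the 205 genes of the mirror set in 20G (12.2%). Over all 57126 RefSeq genes in the files, most of which did not reach 1 FPKM, they made up 7.83%, near the share of the 281 genes. Among genes of 2 to 10 FPKM in 19G, the shares were 18 of 190 (9.47%) and 2.08%. From 10 FPKM upward, where they rest on 2 genes of 55, they were 3.64% and 1.79%. These shares were not tested.

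The files give no positions, and a RefSeq gene table of the assembly HanXRQr2.0-SUNRISE was used for which genes neighbour each other. All 281 genes had a place in that order, among 56957 placed genes. They lay on all 17 chromosomes, with 4 to 34 genes each, or from 0.337% to 3.00% of the genes of at least 1 FPKM in every 19G library there. Next to another gene of the set were 23 of the 281 (8.19%), while 165 of 20285 other genes of at least 1 FPKM in 19G (0.813%) lay next to one. With only tested genes in the order, these counts were 46 of 281 (16.4%) and 452 of 20285 (2.23%). In the order of all placed genes the 23 formed 1 run of 3 and 10 pairs, and the remaining 258 had no gene of the set beside them. Within 5 places of another were 55 of the 281 (19.6%), against 4.27% of the other genes. The genes listed only in 20G also lay near each other: of 203 placed, 9 (4.43%) were next to another of their own set and 22 (10.8%) within 5 places.

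The run of 3 genes and the pairs with the highest levels gave these values. In the run, LOC110877237 stood at 2.38, 2.21 and 2.58 FPKM in the libraries of 19G, LOC110877241 at 2.30, 3.18 and 3.31, and LOC110877242 at 1.78, 2.35 and 1.73. LOC110915143 stood at 4.91, 6.67 and 5.00 FPKM beside LOC110915142 at 17.6, 21.0 and 19.9. LOC110868952 stood at 6.09, 16.0 and 15.6 FPKM beside LOC110867422 at 2.27, 6.24 and 3.21, both lowest in replicate 1. LOC118491727, at 3.26, 1.68 and 1.70 FPKM, and its neighbour LOC118491728, at 3.46, 1.74 and 1.74, were named after their values were seen. Both had replicate 1 highest, against the lean of the set. Whether neighbours are copies of one another was not tested, and if they are, reads shared between them leave both values uncertain.

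Genes of the set at most 5 places from the next one formed 25 groups, of which 22 held 2 genes, 1 held 3 and 2 held 4. One group of 4, with 11 genes from end to end, is given in full. In it LOC110899230 stood at 19.5, 8.63 and 11.2 FPKM in 19G, LOC110899228 at 4.01, 11.5 and 12.0, LOC110899226 at 8.42, 6.74 and 5.61, and LOC110899257 at 15.9, 20.2 and 16.8. Replicate 1 was highest for the first of these, lowest for the second, highest for the third and lowest for the fourth. LOC110899227, which lies among them, had 9.24, 8.83 and 9.30 FPKM in the libraries of 19G and was kept out of the set by 0.125 FPKM in 20G replicate 3. It was called as lower in 20G (log2 difference -3.28, limma adjusted p = 1.81e-05). The other 6 genes between the ends were 5 with under 0.1 FPKM in every library and 1 that was not tested.

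The genes around the set were not used to choose it. Of 2513 such genes within 5 places, 956 reached the level needed for the fit and were tested. Of these 956 genes, 74 (7.74%) were called as lower in 20G and 63 (6.59%) as higher. Over all 22827 placed and tested genes outside the set, 4.22% were called as lower and 6.21% as higher. At 6 to 10 places, 6.80% were called as lower and 7.495% as higher. Around the genes of the mirror set, higher calls made up 10.9% and lower calls 5.39% within 5 places. These last shares leave out the genes of both sets and are not a like measure. The 956 genes still include 10 genes of the mirror set, which the choice of that set makes higher in 20G, and the 22827 include the mirror set too. The median log2 difference of the 956 genes was -0.02 and that of all 22827 was 0.02, both near 0. The shares themselves were not tested. With each library left out in turn, 62 to 105 of the neighbours were called as lower and 57 to 69 as higher. Both upper ends came without 19G replicate 1. In that fit calls over all loci rose too, from 2461 to 3048 lower and from 2388 to 2642 higher.

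The called neighbours were of different kinds. Of the 74 lower in 20G, 33 had at most 0.5 FPKM in every library of 20G, and 24 had at least 1 FPKM in all 6 libraries. LOC110898783, next to LOC110898784 of the set, stood at 37.7, 40.7 and 43.2 FPKM in 19G and at 0.13, 0 and 0 in 20G (log2 difference -5.31, limma adjusted p = 1.67e-05). LOC110878408, next to LOC110878374, stood at 18.0, 29.3 and 21.3 FPKM in 19G and at 0, 0 and 0.0453 in 20G (log2 difference -4.53, limma adjusted p = 1.91e-05). These neighbours fall short of the set by a trace of signal. LOC110867086, next to LOC110868952, was expressed in both lines, at 8.63, 11.5 and 13.2 FPKM in 19G and 0.87, 1.06 and 1.12 in 20G, a log2 difference of -2.57 (limma adjusted p = 0.000107). Genes named here beside genes of the set were picked after their values were seen.

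Some genes of the set lay close to a gene with the opposite pattern, but so did a near equal share of other genes. A gene called as higher in 20G lay within 5 places of 22.8% of the 281 genes. For other genes of at least 1 FPKM in every 19G library the share was 21.6%. The most abundant gene of the set was one with such a neighbour. LOC110930696, at 20.4, 320.4 and 255.4 FPKM in 19G and 0 in 20G, lies 2 places from LOC110930697, with 1 gene at 0 in all 6 libraries between them. LOC110930697 stood at 22.7, 3.02 and 21.1 FPKM in 19G and at 1110, 702.4 and 1088 in 20G (log2 difference 6.21, SE 0.67, limma adjusted p = 0.00045). In replicate 2 of 19G the first gene was at its highest and the second at its lowest. Replicates 1 and 3 did not show this: the first stood at 20.4 and 255.4 FPKM, the second at 22.7 and 21.1. The genes that flank the pair were not called: LOC110930692, next to LOC110930696, had a log2 difference of 0.51, and LOC110930698, next to LOC110930697, one of -0.67.

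Further cases were weaker in level. LOC118488411 of the set lies 4 places from LOC110916016, which had 34.4, 47.2 and 40.5 FPKM in 20G and 0 in 19G. LOC110892836 lies 3 places from LOC110894855, at 0 in 19G and 13.0, 9.05 and 14.1 FPKM in 20G. LOC110916016 and LOC110894855 belong to the mirror set, which was chosen for this pattern. Within 5 places of the 281 genes lay 10 of the 203 placed genes of the mirror set (4.93%). For other genes of at least 1 FPKM in 19G the share was 4.27%. LOC110927334 lies 2 places from LOC110901285, at 0.485, 2.42 and 5.83 FPKM in 19G and 85.4, 101.1 and 53.7 in 20G. A gene called as higher in 20G lay within 5 places of 64 of the 281 genes (22.8%), against 21.6% of the other genes of at least 1 FPKM in 19G. A gene outside the set called as lower lay within 5 places of 73 of the 281 (26.0%), against 15.3%. Neither difference was tested.

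Weak signal beside the genes of the set leaned the same way. Genes above 0 in every 19G library and at 0 in every 20G library, but too weak for the set, made up 28 of the 532 genes next to it that belong to neither set (5.26%). They made up 1.02% of the genes next to other genes expressed in 19G and 1.20% of all 56473 placed genes outside both sets. At 6 to 10 places the share was 1.87%. The opposite kind, above 0 in every 20G library and at 0 in every 19G library, made up 6 of the 532 (1.13%), against 0.976% of all. Around the mirror set of 20G the shares were turned round, at 1.79% and 4.59% of 392 genes. LOC110892864 and LOC110894905, the 2 genes that follow LOC110894903 in the order, are such weak neighbours, at 0.374, 0.122 and 0.177 FPKM and at 0.19, 0.326 and 0.358 FPKM in 19G and 0 in 20G. They were named after their values were seen.

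**Figure D5:**
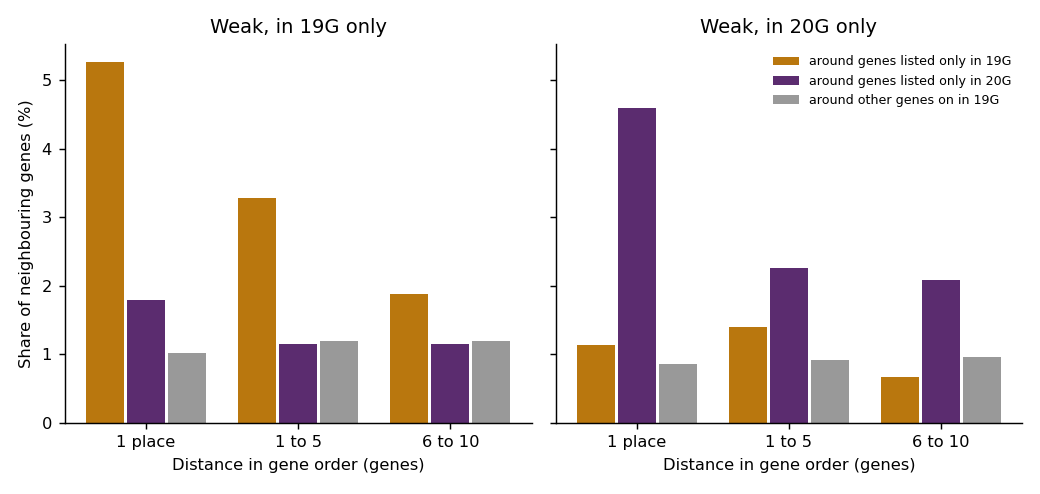
Share of neighbouring genes (vertical axis, percent) with weak signal in only 1 line, by distance in gene order, around the 281 genes listed only in 19G, the genes listed only in 20G and the other genes of at least 1 FPKM in 19G. Signal in 19G only (first panel) is most frequent next to the 281 genes, at 5.26%, and signal in 20G only (second panel) next to the mirror set, at 4.59%.

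The genes beside the set included about as many with next to no signal in either line as the gene order at large. Of 533 genes next to a gene of the set, 238 (44.7%) were silent, here meaning under 0.1 FPKM in all 6 libraries, against 35.4% of the genes next to other genes expressed in 19G. Over all placed RefSeq genes outside the set, 43.6% were that weak. Within 5 places the shares were 43.5% around the set and 42.0% around other genes expressed in 19G. For genes of the set with a mean of at least 10 FPKM the share was 50%, against 34.1% beside other genes of that level. Beside genes of the mirror set at that level in 20G it was 52.9%. At 2 to 10 FPKM the shares were 43.1% beside the set, 34.7% beside other genes and 35.7% beside the mirror set. A silent gene lay on both sides of 55 of the 281 (19.6%), against 12.2% of the other genes and 19.2% of the mirror set. The number varied widely between genes. Over the 27 genes named by rule, 103 of the 270 nearest places (38.1%) held a silent gene. Some of the 27 are neighbours, so places near more than 1 of them were counted more than once. The 38.1% is thus not a share of distinct genes. LOC110877236, at 10.1, 9.97 and 10.7 FPKM, had 10 silent genes among the 10 nearest. LOC110869863, at 25.3, 43.4 and 46.0 FPKM, had 6. LOC110895162, which had replicate 1 highest at 137.4 FPKM, had 4, and a gene 3 places away, LOC110895164, stood at 461.6 FPKM in replicate 1 and at 11.2 and 14.9 in replicates 2 and 3. The genes next to LOC110915142 and LOC110915143 were different, with 0 silent genes among the 10 nearest to each.

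Beside the 281 of 57126 RefSeq genes, 574 of the authors' own 13716 new loci met the same limits, which gives 855 loci in all. The share that met them was thus larger among all new loci than among all RefSeq genes, a difference that was not tested. Most of the 57126 RefSeq genes fell short of 1 FPKM: 20611 reached it in every 19G library, and 1.36% of these met the limits. The like share among new loci that reached 1 FPKM was not computed. The new loci have no place in the gene order and no other annotation. Their mean FPKM in 19G had a median of 4.40, against 4.39 for the 281 genes.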

How the data were processed

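Petiole RNA was measured in 6 sunflower libraries, 3 per inbred line, grouped by their titles. The authors deposited FPKM per locus, per the labels, made from poly(A)-enriched libraries, per the labels' protocols. The sources used here give no aligner, assembler, genome build or filter. Low values were searched for a step of 1 read: for each 2 libraries, the log2 ratios of loci below 0.1 FPKM in both were binned by 0.01, and no bin held over 2.09% of loci. What share no step would give was not computed. No reads were recovered, and no count test was run. The 281 genes and all lists and comparisons here were chosen with earlier results of these data known.

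Loci of at least 1 FPKM in 3 or more libraries were fitted as log2(FPKM + 1) with limma 3.58.1 (R 4.3.3), with a mean-variance trend, no covariates, and two-sided Benjamini-Hochberg adjusted p-values over all tested loci. The fit and the neighbour counts were checked on simulated data. With no separate plants named, p-values rest on a spread that may be only technical. Python 3.11.15 and pandas 2.3.3 made the remaining values.

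All 57126 LOC identifiers matched the RefSeq table of HanXRQr2.0-SUNRISE. Since no build is named for the files, it served for gene order alone, without genes on unplaced scaffolds or organelles. Shares of neighbours are counts without a test.

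Genes were named by rule: the 10 highest means, the 4 most uneven and the 4 most even in 19G among means of at least 5 FPKM, the 3 longest runs, and the 3 nearest to each limit. The rule's parts on product names and protein relatives were not used here, nor were tissue markers, because no product or protein table was at hand.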

Additional observations from a re-analysis of the deposited data

How the results depend on the processing

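How many genes count as listed in one line depends on where the limits stand. Asking for 5 FPKM in every 19G library left 90 of the 281 genes, with a median level of 11.4 FPKM, 2 next to each other and 67 (74.4%) lowest in 19G replicate 1. With 0.5 FPKM as the limit there were 380, with a median of 3.30 FPKM and 36 next to another. Up to 0.1 FPKM in 20G gave 366. With each library left out in turn, which relaxes the limits, there were 287 to 337, the most without 19G replicate 1, with medians of 4.08 to 4.801 FPKM and 23 to 33 next to another. Next to another gene of the set were 46 when only tested genes were placed in the order, and 55 lay within 5 genes. Testing only loci with a mean of at least 5 FPKM left 1860 calls and 55 of the 281 genes, all of them called, because the others were not tested. With each library left out, all loci gave 4345 to 5690 calls, the set 279 to 281, and neighbours within 5 places 62 to 105 lower and 57 to 69 higher calls. Among genes next to the set, 44.2% to 45.8% were silent and 4.77% to 5.69% had weak signal in 19G alone, and 8.14% to 9.20% of the set carried LOC118 numbers. The alternatives for the neighbours and identifiers were added after seeing the data. With the replicate block 5126 loci were called, all 281 genes among them, and neighbours gave 82 lower and 68 higher calls. The numbers are not shown to pair the libraries: libraries with the same number had correlated deviations of 0.245, -0.013 and 0.127, and not every library correlated best with its own number. Of 365 refitted values of 27 named genes, 364 kept direction and call and 0 reversed. LOC110890439 lost its call under quantile normalization, at a log2 difference of -0.97. With a pseudocount of 0.1, LOC110930696 moved from -6.92 to -10.22. The planned values for protein relatives were not run, since no protein table was at hand. What depth limits among the low genes cannot be stated, since it is unknown.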
